A study of Rattus norvegicus with 8 samples.

Results

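The genes described here encode potassium channels of rat annulus fibrosus cells (AFCs), which come from the fibrous outer ring of the intervertebral disc. They are 8 of the 31699 rows of the deposited table. They comprise both pores (Kcnj8 and Kcnj11) and both sulfonylurea receptors (Abcc9 and Abcc8) of the ATP-sensitive potassium channel, called KATP, the inward rectifier Kcnj2, and the calcium-activated channel genes Kcnma1, Kcnmb1 and Kcnn4. They were picked by symbol, but with the large difference in Kcnj8 and Abcc9 between the groups already known. Their differences between the groups are therefore given as a description and without a p-value. Where they are counted past a threshold, the count is not a test of them.

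RNA-seq was performed on AFCs of Sprague Dawley rats, and all 8 samples had received a lentivirus and cyclic mechanical stretch (CMS). The 4 with the label Lv-Ctrl carried the empty vector pLVX-shRNA-Puro, and the 4 with the label Lv-Piezo1 carried the same vector with a short hairpin RNA against Piezo1, a mechanosensitive ion channel. The cells were isolated from the pooled tissue of several rats and passaged before use, the study gives an age for the rats of its animal model and not for those used for cells, and no unstretched or uninfected sample was analysed here. Values are in TPM (transcripts scaled to a fixed total), which correct for transcript length and have the same total in every sample. They keep no sequencing depth, so the depth is unknown and the precision rests on the 4 samples of each group.

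A KATP channel is an octamer of pore subunits and sulfonylurea receptors that closes when cellular ATP is high, so that it ties membrane potential to metabolism. The pairing of Kcnj8 with Abcc9 is the typical KATP channel of vascular smooth muscle and pericytes, whereas Kcnj11 with Abcc8 is that of the pancreatic beta cell. Opening potassium channels hyperpolarizes a cell, which closes voltage-gated calcium channels and raises the driving force for calcium entry through channels that are not voltage-gated, while calcium-activated channels open when calcium rises.

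The targeted gene Piezo1 was not lower in the Lv-Piezo1-labelled samples. It had 30.1 ± 2.67 TPM in the Lv-Ctrl-labelled samples and 39.4 ± 1.75 TPM in the Lv-Piezo1-labelled samples (SD, n = 4 each), with a log2 fold change of 0.38 (SE 0.06, adjusted p = 8.6e-04 from limma). The study describes a separate check of the hairpin, which was not analysed here. All directions below are those of the samples so labelled. Values were compared as log2(TPM + 1), where the added 1 shrinks the fold change of low genes, and 13103 genes with a mean of at least 1 TPM over the 8 samples were tested. A gene was called at a Benjamini-Hochberg adjusted p below 0.05 with a log2 fold change of at least 1 in size. The median log2 fold change of all tested genes was 0.14, and for the potassium channel genes the change relative to this median is given where it matters.

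Of the labelled cell type, 8 of 10 annulus fibrosus and tendon-like markers had a mean of at least 1 TPM in each group, with Col1a1 the most abundant, while the cartilage collagen Col2a1 and the tendon marker Tnmd stayed below that level. The summed TPM of the 10 was 5425.3 to 6097.3 in the Lv-Ctrl-labelled samples and 10018.4 to 10662.9 in the Lv-Piezo1-labelled samples. As background for the counts of calls given here, 4.91% of all tested genes were called higher and 2.76% lower. Of the 8 annulus fibrosus and tendon-like markers tested, Thbs4 was called higher and 0 were called lower. The others were named after their values were seen. Col1a1 (0.83), Col1a2 (0.71), Scx (0.89) and Acan (0.57) had positive log2 fold changes, with adjusted p from limma of at most 7.7e-04. Fmod (-0.99) and Mkx (-0.76) had negative ones, with adjusted p from limma of 5.5e-07 and 1.0e-04, and Sox9 (-0.008) was near 0. Of 6 endothelial markers, 0 had a mean of at least 1 TPM. Mural cell markers moved with the comparison. The summed TPM of the 13 mural markers in the table, which do not include Kcnj8 or Abcc9, was 384.9 to 407.8 in the Lv-Ctrl-labelled samples and 2202.0 to 2301.5 in the Lv-Piezo1-labelled samples, mostly through Acta2 (51.2 ± 2.27 and 1344.3 ± 40.5 TPM, SD, n = 4 each), and of the 10 tested, 7 were called higher and 0 lower. None of the 13 was at 0 in every sample, but Rgs5 and Vtn had means below 1 TPM in both groups. A mean of at least 1 TPM was reached by 10 in the Lv-Ctrl-labelled samples and by 11 in the Lv-Piezo1-labelled samples. Of 6 macrophage markers, 1 was called higher, Cd68, with 0.955 ± 0.899 and 12.3 ± 0.901 TPM (SD, n = 4 each). Cd68 reached the filter only through the Lv-Piezo1-labelled samples and so had to differ. The summed TPM of the macrophage markers, Cd68 included, was 21.3 to 23.3 in the Lv-Ctrl-labelled samples and 37.1 to 41.9 in the Lv-Piezo1-labelled samples. Most of it was Cd14, with 20.9 ± 0.324 and 25.8 ± 1.91 TPM (SD, n = 4 each), which was not called. Lyz2 had means of 0.445 and 1.10 TPM and Csf1r of 0.0875 and 0.095 TPM. Ptprc had at most 0.01 TPM in any sample, and Adgre1 was at 0 throughout. Of 6 skeletal muscle markers with a row, 0 were called, Myod1 and Myog were at 0 throughout, and the sum was 9.86 to 49.6 TPM in the Lv-Ctrl-labelled samples, where replicate 2 was highest, and 20.3 to 22.4 TPM in the Lv-Piezo1-labelled samples. The part of these markers in the potassium channel values was not tested, and in such bulk samples fewer cells of a type and less RNA per cell cannot be told apart.

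Both genes of the smooth muscle type KATP channel were far less abundant in the Lv-Piezo1-labelled samples. Kcnj8 (ENSRNOG00000013463), the pore subunit also called Kir6.1, measured 332.43, 329.14, 324.67 and 319.5 TPM in Lv-Ctrl-labelled replicates 1 to 4. In Lv-Piezo1-labelled replicates 1 to 4 it measured 36.23, 38.31, 42.47 and 39.57 TPM. The groups lay far apart with little spread inside either, at 326.4 ± 5.61 and 39.1 ± 2.61 TPM (SD, n = 4 each), so that the mean was 8.34-fold lower. Its log2 fold change was -3.03 (SE 0.05), or -3.17 relative to the median of all tested genes. By mean TPM Kcnj8 stood at position 446 of all 31699 rows in the Lv-Ctrl-labelled samples and at position 3351 in the Lv-Piezo1-labelled samples.

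Abcc9 (ENSRNOG00000036960), the sulfonylurea receptor also called SUR2, behaved similarly with more spread. It measured 79.82, 81.72, 59.48 and 73.9 TPM in Lv-Ctrl-labelled replicates 1 to 4, where replicate 3 was lowest. It measured 11.23, 12.07, 12.09 and 13.72 TPM in Lv-Piezo1-labelled replicates 1 to 4. The groups did not overlap. The means were 73.7 ± 10.1 and 12.3 ± 1.04 TPM (SD, n = 4 each), a 6.01-fold lower level and a log2 fold change of -2.49 (SE 0.10), or -2.63 relative to the median of all tested genes. Its position among all rows moved from 1828 to 7051.

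**Figure D1:**
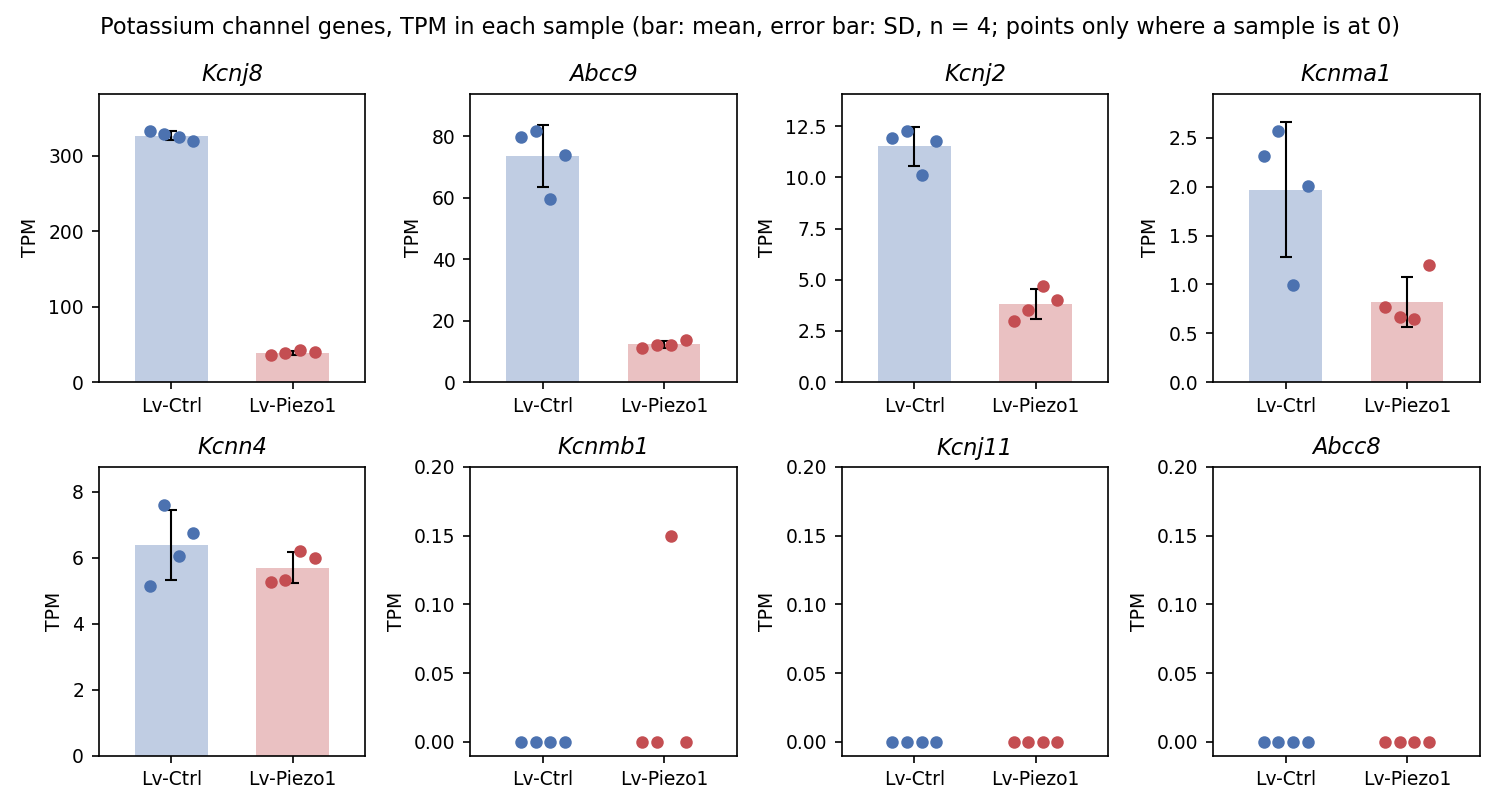
TPM of the 8 potassium channel genes in each sample (points), with the group mean (bar) and SD (error bar, n = 4); genes with samples at 0 are shown as points only, and each panel has its own axis. Kcnj8 and Abcc9 were 8.34-fold and 6.01-fold lower in the Lv-Piezo1-labelled samples, Kcnn4 overlapped between the groups, and Kcnj11 and Abcc8 were listed at 0 in all 8 samples.

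Within a channel, pore subunits and receptors are assembled in equal number. At the transcript level Kcnj8 exceeded Abcc9 in every sample. The ratio of Kcnj8 to Abcc9 TPM was 4.17, 4.03, 5.46 and 4.32 in Lv-Ctrl-labelled replicates 1 to 4 and 3.23, 3.17, 3.51 and 2.88 in Lv-Piezo1-labelled replicates 1 to 4. The lowest ratio labelled Lv-Ctrl, in replicate 2, lay above the highest labelled Lv-Piezo1, in replicate 3. The mean ratio was 4.49 ± 0.655 and 3.20 ± 0.258 (SD, n = 4 each), so Kcnj8 was lower by a larger factor than Abcc9. This ratio is taken within a sample and is free of scaling between samples. Without Lv-Ctrl-labelled replicate 3, the mean ratio of that group was 4.17.

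The pancreatic type pair was listed at 0. Kcnj11 (ENSRNOG00000021128), the pore subunit Kir6.2, and Abcc8 (ENSRNOG00000021130), the receptor SUR1, had 0 TPM in all 8 samples, and since the depth is unknown no upper limit can be given. Of the 3 protein-coding genes on either side of this pair in RefSeq order, Nomo1 alone was measured above 0, with 43.7 ± 2.12 and 73.2 ± 0.854 TPM (SD, n = 4 each).

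Kcnj8 and Abcc9 lie next to each other on the same strand of chromosome 4, so their promoters are shown to let a reader compare the starts of genes whose levels differed together. The promoter of Kcnj2, an inward rectifier on another chromosome that was also lower, is set beside them. Of the 8 genes, 5 had a promoter entry. Each sequence is taken from RefSeq on build GRCr8, runs 5′ to 3′ on the strand of the gene, and covers 250 bases before and 50 bases after the annotated start. It need not be the build behind the deposited TPM. Capitals mark matches, on either strand, to the motif GGGCGG (the GC box bound by SP1-type factors), to the E-box CANNTG and to the MEF2 site. None of these windows held a CArG box, the motif bound by serum response factor at smooth muscle genes.
Kcnj8, chr4:177246499-177246798, minus strand: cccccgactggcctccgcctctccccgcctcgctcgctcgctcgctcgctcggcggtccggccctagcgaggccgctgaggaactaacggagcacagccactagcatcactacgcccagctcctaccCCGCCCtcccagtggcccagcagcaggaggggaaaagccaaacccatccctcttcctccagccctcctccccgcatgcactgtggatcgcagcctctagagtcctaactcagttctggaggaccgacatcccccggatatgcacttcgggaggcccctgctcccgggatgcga
Abcc9, chr4:177386299-177386598, minus strand: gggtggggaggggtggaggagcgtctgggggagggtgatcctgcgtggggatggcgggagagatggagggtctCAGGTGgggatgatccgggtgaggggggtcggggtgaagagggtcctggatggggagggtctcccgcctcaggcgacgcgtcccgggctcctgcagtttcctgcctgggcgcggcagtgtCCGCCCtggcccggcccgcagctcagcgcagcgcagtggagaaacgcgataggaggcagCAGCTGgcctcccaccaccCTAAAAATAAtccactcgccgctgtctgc
Kcnj2, chr10:96559975-96560274, plus strand: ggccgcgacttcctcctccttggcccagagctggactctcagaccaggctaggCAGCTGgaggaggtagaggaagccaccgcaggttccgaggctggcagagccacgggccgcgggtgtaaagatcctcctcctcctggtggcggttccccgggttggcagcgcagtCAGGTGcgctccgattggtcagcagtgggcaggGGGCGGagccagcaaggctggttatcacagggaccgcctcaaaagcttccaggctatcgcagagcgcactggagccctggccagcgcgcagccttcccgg

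All of these promoters were rich in G and C, at 67.0% for Kcnj8, 69.0% for Abcc9 and 67.0% for Kcnj2. Each held 1 GC box, which 33.1% of the 33469 promoters in the table hold. Abcc9 and Kcnj2 each held 2 E-boxes and Kcnj8 held 0, where 72.1% of promoters hold at least 1. The single MEF2 site, in Abcc9 just after the annotated start, is a motif held by 3.29% of promoters, and it was added to the search after this sequence had been read. A CArG box is held by 1.64% of promoters. A match is a match of letters only.

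The protein-coding genes beside Kcnj8 and Abcc9 were examined in RefSeq order, 3 on each side. Ldhb, the heart-type lactate dehydrogenase subunit, is the nearest gene beside Kcnj8 and fell by 1.87 on the log2 scale, from 303.3 ± 17.1 to 82.3 ± 5.12 TPM (SD, n = 4 each; SE 0.05, adjusted p = 1.2e-08 from limma). Cmas, which activates sialic acid and is the nearest gene beside Abcc9, had 65.9 ± 5.60 and 62.2 ± 2.99 TPM (SD, n = 4 each) and was not called (log2 fold change -0.08, adjusted p = 0.31 from limma). Gys2, Spx and St8sia1 had means of at most 0.03 TPM in either group and were not tested, and Sult6b2 has no row among those used here.

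Lower values were thus seen in the immediate neighbour on the Kcnj8 side and not in that on the Abcc9 side. When the window was widened to 5 genes on each side after these values had been seen, Recql had a log2 fold change of 0.57 on the Ldhb side and Golt1b one of 0.12, close to the median of all tested genes. On the Cmas side C2cd5, with 21.2 ± 2.14 and 10.1 ± 0.892 TPM (SD, n = 4 each), and Etnk1, an ethanolamine kinase with a log2 fold change of -1.29, both passed the threshold, C2cd5 narrowly.

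**Figure D2:**
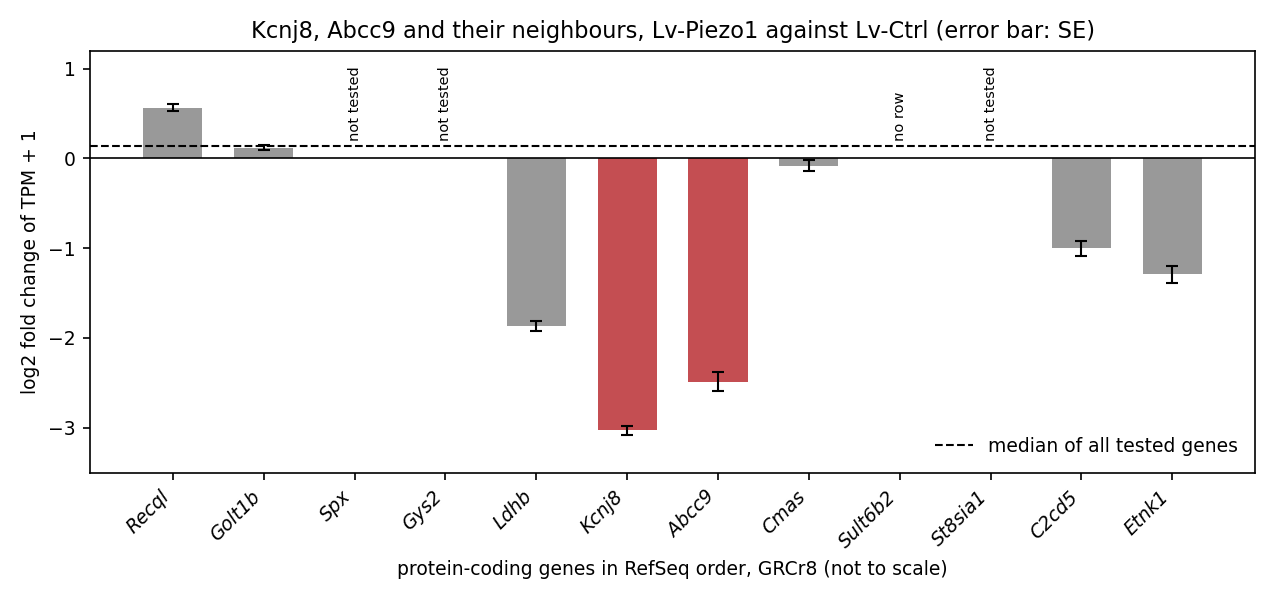
Log2 fold change (with SE) of Kcnj8, Abcc9 and the 5 protein-coding genes on each side, in RefSeq order and not to scale, in Lv-Piezo1-labelled samples against Lv-Ctrl. Ldhb (-1.87), Kcnj8 (-3.03) and Abcc9 (-2.49) lie side by side at negative values while Cmas (-0.08) is near 0, and the dashed line is the median of all tested genes.

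Kcnj2 (ENSRNOG00000064933) encodes Kir2.1, a strong inward rectifier that holds the resting potential near the potassium equilibrium. It measured 11.91, 12.26, 10.14 and 11.8 TPM in Lv-Ctrl-labelled replicates 1 to 4 and 3.01, 3.54, 4.69 and 4.03 TPM in Lv-Piezo1-labelled replicates 1 to 4. The groups did not overlap. The means were 11.5 ± 0.946 and 3.82 ± 0.715 TPM (SD, n = 4 each), with a log2 fold change of -1.39 (SE 0.11).

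Among the calcium-activated genes the levels were low. Kcnma1 (ENSRNOG00000005985), the pore of the large-conductance BK channel that responds to both calcium and voltage, measured 2.32, 2.57, 0.99 and 2.01 TPM in Lv-Ctrl-labelled replicates 1 to 4. In Lv-Piezo1-labelled replicates 1 to 4 it measured 0.77, 0.67, 0.65 and 1.2 TPM. The groups overlapped, because Lv-Ctrl-labelled replicate 3 lay below Lv-Piezo1-labelled replicate 4. The log2 fold change was -0.68 (SE 0.20), short of the threshold. It depended on the pseudocount, since it was -1.13 with a pseudocount of 0.1 and then passed. Kcnma1 reached the filter only through the Lv-Ctrl-labelled samples (mean 1.97 TPM, beside 0.82 TPM in the Lv-Piezo1-labelled samples) and so had to differ.

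Kcnmb1 (ENSRNOG00000005465), the auxiliary subunit that raises the calcium sensitivity of BK channels in smooth muscle, was listed at 0 in 7 of the 8 samples and at 0.15 TPM in Lv-Piezo1-labelled replicate 3. It was thus near 0 in samples where the smooth muscle marker Acta2 was high. Kcnn4 (ENSRNOG00000019440), the intermediate-conductance channel KCa3.1 of lymphocytes and fibroblasts, measured 5.14, 7.61, 6.05 and 6.75 TPM in Lv-Ctrl-labelled replicates 1 to 4 and 5.25, 5.34, 6.2 and 5.98 TPM in Lv-Piezo1-labelled replicates 1 to 4. The groups overlapped, with a log2 fold change of -0.13 (SE 0.11).

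Of the 8 genes, 5 passed the filter on low TPM and 3 of these, Kcnj8, Abcc9 and Kcnj2, passed the threshold, all lower. Over all tested genes 7.67% were called, 2.76% as lower and 4.91% as higher in the Lv-Piezo1-labelled samples. The groups did not overlap in these same 3 genes, and over all tested genes they did not overlap in 54.2%. Because the genes were chosen with this comparison known, their count is a description and not a test, although the threshold includes an adjusted p. Nearest to the fold change threshold were Kcnj2 inside it, at -1.39 on the log2 scale, and Kcnma1 outside it, at -0.68. Abcc9, Kcnj2 and Kcnma1 each had their lowest value of the Lv-Ctrl-labelled samples in replicate 3.

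Kcnj8 and Abcc9 made up much of the potassium channel transcripts. A list of 93 other potassium channel and auxiliary subunit genes was examined beside them, 90 of which have a row, so that 98 genes were summed. The sum was 931.3 to 1020.2 TPM in the Lv-Ctrl-labelled samples and 356.6 to 372.5 TPM in the Lv-Piezo1-labelled samples. Kcnj8 held 33.2% ± 1.17 of it in the Lv-Ctrl-labelled samples and 10.8% ± 0.520 in the Lv-Piezo1-labelled samples (SD, n = 4 each). Abcc9 held 7.46% ± 0.745 and 3.40% ± 0.292 (SD, n = 4 each). Each of these shares was lower in every Lv-Piezo1-labelled sample than in every Lv-Ctrl-labelled sample.

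Most of the difference in the sum lay in 3 genes. The 2-pore channel Kcnk2 was 278.0 TPM lower on average, Kcnj8 287.3 TPM lower and Abcc9 61.5 TPM lower, against 623.8 TPM for the whole sum. The remaining 95 genes together had 107.5 ± 7.23 TPM in the Lv-Ctrl-labelled samples and 110.4 ± 5.53 TPM in the Lv-Piezo1-labelled samples (SD, n = 4 each), ranges that overlapped. This split into 3 genes and the rest was made after the values had been seen.

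**Figure D3:**
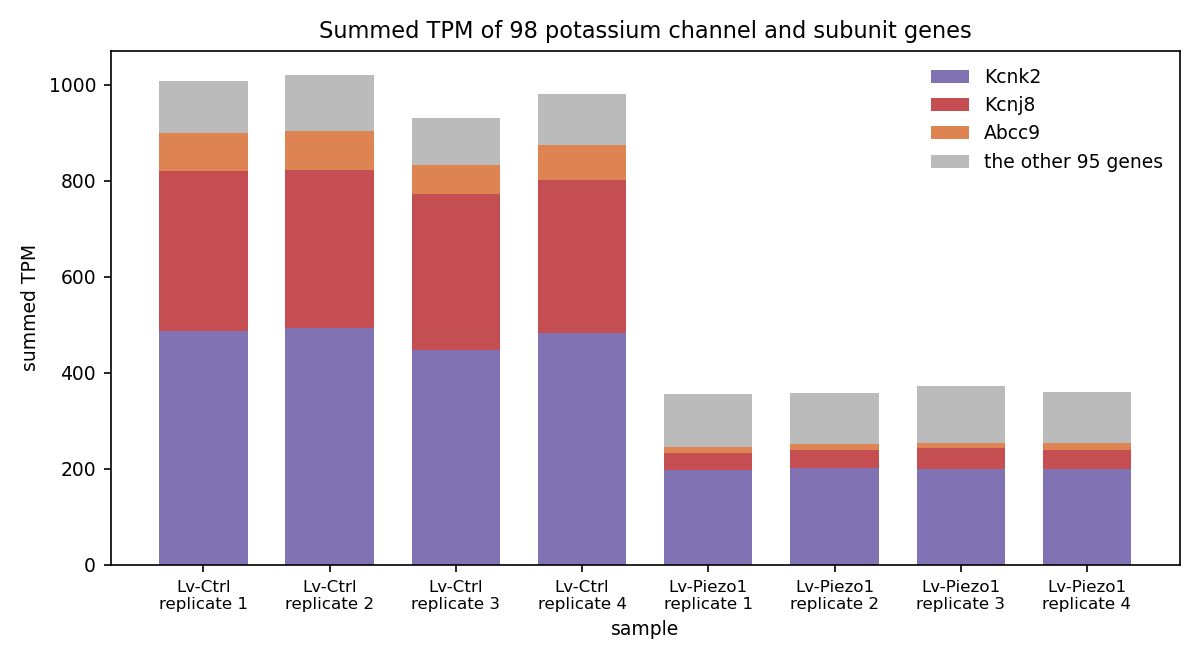
Summed TPM of 98 potassium channel and subunit genes in each sample, divided into Kcnk2, Kcnj8, Abcc9 and the other 95 genes. The grey part is about as tall in both groups, at 107.5 and 110.4 TPM on average, while the red part, Kcnj8, is 39.1 TPM on average in the Lv-Piezo1-labelled samples against 326.4 TPM in the Lv-Ctrl-labelled samples.

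The order of the levels changed accordingly. In the Lv-Ctrl-labelled samples the order began with Kcnk2 at 477.8 TPM, Kcnj8 at 326.4 and Abcc9 at 73.7 TPM, and none of these overlapped the next. Kcnj2 at 11.5 TPM was the seventh of 19 genes with a mean of at least 1 TPM, and its range overlapped those of Kcnn3 above and Kcnk12 below. In the Lv-Piezo1-labelled samples Kcnk2 at 199.8 TPM and Kcnj8 at 39.1 TPM remained at the top without overlap. Abcc9 was at the sixth position of 18, where its 12.3 TPM overlapped Kcnh2 at 13.9 TPM, and Kcnj2 at the 14th overlapped both of its neighbours.

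Among the 90 other potassium channel genes with a row, 22 were listed at 0 in every sample. Of the 13 tested, 3 were called, 2 lower and 1 higher, beside 7.67% called over all tested genes. Without the fold change threshold, 11 had an adjusted p below 0.05, 3 lower and 8 higher. Over all tested genes 58.2% did, 2137 lower and 5489 higher. The median log2 fold change of the 13 genes was 0.52, beside 0.14 for all tested genes.

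Both genes called lower were 2-pore potassium channels, a family that carries the background leak current. The family did not fall as a whole. Of its 5 tested genes, Kcnk12 (0.52) and Kcnk6 (0.39) had positive log2 fold changes, with adjusted p from limma of 0.0024 and 0.012. Kcnk5 had -0.13, and these others, named after their values were seen, were not called. Kcnk2 encodes TREK-1, a leak channel that opens with membrane stretch. It measured 487.2, 493.22, 448.55 and 482.28 TPM in Lv-Ctrl-labelled replicates 1 to 4 and 197.28, 201.8, 200.43 and 199.77 TPM in Lv-Piezo1-labelled replicates 1 to 4. The log2 fold change was -1.25 (SE 0.03, adjusted p = 8.8e-09 from limma), and no sample of one group came near the other.

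Kcnk3, the acid-sensitive leak channel TASK-1, fell by 2.18 on the log2 scale, from 13.1 ± 2.14 to 2.19 ± 0.930 TPM (SD, n = 4 each; SE 0.20, adjusted p = 1.7e-05 from limma). The gene called higher was Kcne4, an accessory subunit that dampens voltage-gated channels, with 0.655 ± 0.197 and 2.88 ± 0.137 TPM (SD, n = 4 each) and a log2 fold change of 1.24 (SE 0.11). Kcne4 reached the filter only through the Lv-Piezo1-labelled samples and so had to differ, and its call is given as a description. Kcnk2 and Kcnk3 were past the threshold under both other scalings and in each fit without 1 sample. Kcne4 was too, but the same filter applied in these fits, so this adds nothing to its call.

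The most abundant gene of each other family did not pass. Among voltage-gated pores it was Kcnh2, the hERG channel of the heart, with 7.02 ± 0.417 and 13.9 ± 0.394 TPM (SD, n = 4 each) and a log2 fold change of 0.90 (SE 0.05, adjusted p = 1.3e-06 from limma). The most abundant voltage-gated auxiliary gene, Kcnab2, had 4.97 ± 0.598 and 9.05 ± 0.620 TPM, with 0.75 on the log2 scale. The small-conductance channel Kcnn3 had 11.8 ± 1.08 and 7.47 ± 0.945 TPM, with -0.59. The inward rectifier Kcnj12, or Kir2.2, had 1.62 ± 0.0709 and 0.288 ± 0.075 TPM (SD, n = 4 each for all of these), a mean below 1 TPM over the 8 samples, and was not tested. None of the 12 other inward rectifiers, Kcnj12 included, reached the mean needed for a test.

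**Figure D4:**
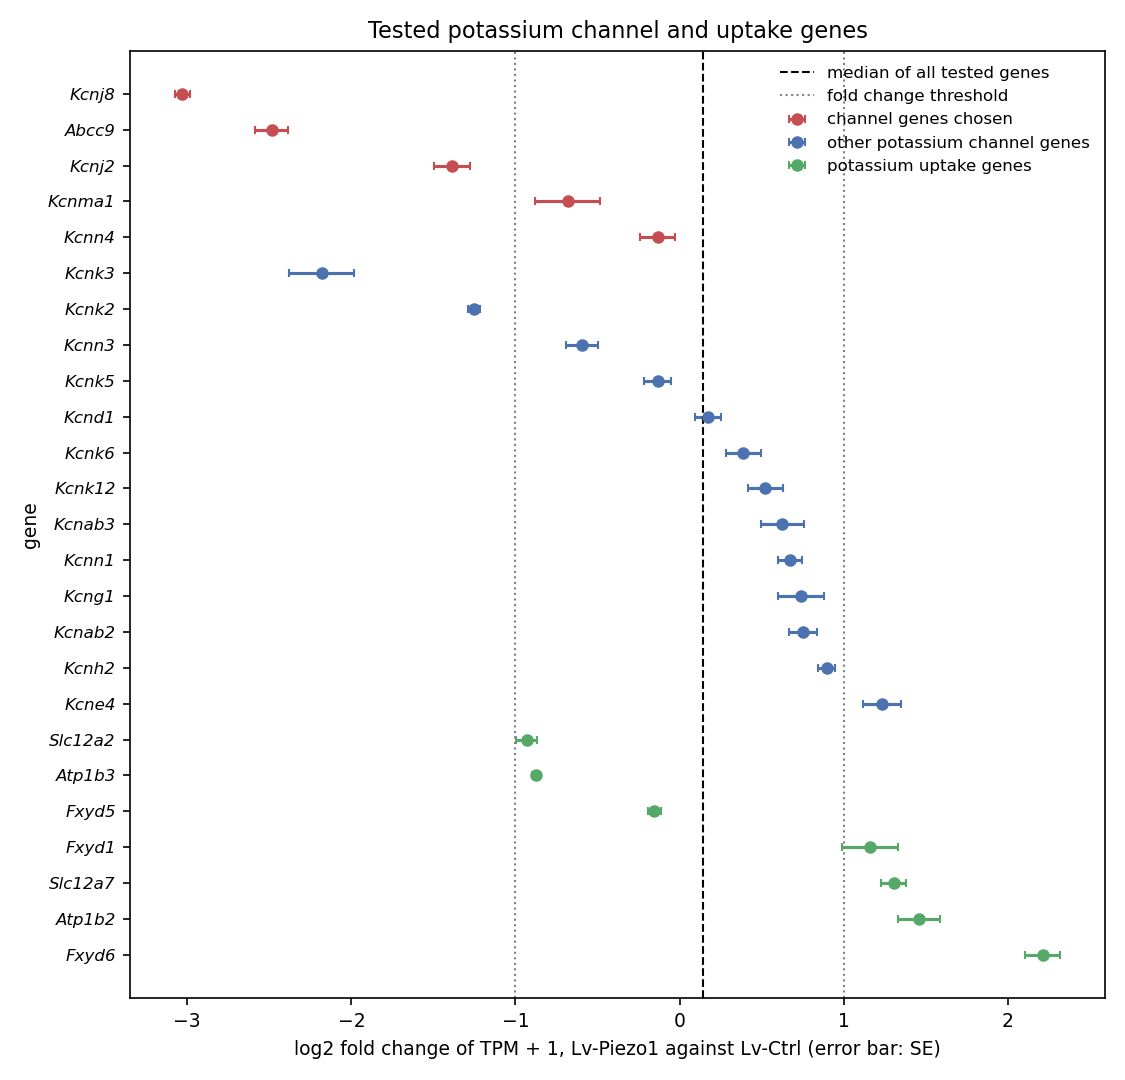
Log2 fold change (point) and SE (error bar) of each tested potassium channel gene and of the uptake genes named in the text, in Lv-Piezo1-labelled samples against Lv-Ctrl, with the fold change threshold (dotted) and the median of all tested genes (dashed, 0.14). Kcnj8 (-3.03), Abcc9 (-2.49) and Kcnk3 (-2.18) lie farthest to the left and Fxyd6 (2.21) farthest to the right.

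Potassium that leaves through channels is returned by the sodium pump. Proton-potassium pumps are listed with it here as uptake genes. So are cation-chloride cotransporters, although the potassium-chloride type, such as Slc12a7, mostly carries potassium out of the cell. Of the 24 genes so listed, 23 have a row, 12 were tested and 4 were called, all higher. Over all tested genes 7.67% were called, 4.91% as higher. Without the fold change threshold, 11 of the 12 had an adjusted p below 0.05, 7 higher and 4 lower, beside 58.2% of all tested genes. The median log2 fold change of the 12 genes was 0.32, beside 0.14 for all tested genes. The potassium-chloride cotransporter Slc12a7 rose from 5.17 ± 0.442 to 14.3 ± 1.17 TPM and Fxyd1, a small regulator of the pump, from 1.99 ± 0.456 to 5.73 ± 1.40 TPM (SD, n = 4 each), with adjusted p from limma of 9.2e-07 and 3.7e-04. The other calls were Fxyd6, another such regulator, with 0.295 ± 0.0881 and 5.02 ± 0.532 TPM, and Atp1b2, a beta subunit of the pump, with 0.388 ± 0.155 and 2.81 ± 0.378 TPM (SD, n = 4 each). Both reached the filter only through the Lv-Piezo1-labelled samples and so had to differ, and their calls and their part in the count are a description.

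These 4 genes had low levels. Higher levels were measured for the beta subunit Atp1b3, with 462.0 ± 5.92 and 251.7 ± 3.70 TPM, and for the regulator Fxyd5, with 384.4 ± 14.0 and 345.5 ± 15.0 TPM (SD, n = 4 each), and neither passed the fold change threshold. The split of calls depended on scaling. After median-ratio scaling 6 genes were called, 4 higher and 2 lower, the lower ones being Atp1b3 (-1.04) and the cotransporter Slc12a2 (-1.09), which was named after its values were seen. After quantile normalization 3 were higher and 1 lower, the latter again Slc12a2 (-1.05), and Fxyd1 at 0.95 no longer passed.

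The genes whose levels followed Kcnj8 most closely over the 8 samples were B2m, Fam169b, S100b, Scin and Mmp3, with Pearson r from 0.9992 to 0.9994 on log2(TPM + 1) among 11580 other tested genes with a symbol. Those for Abcc9 were Slc14a1, Il1rl1, Medag, Slc25a12 and Ptgs1, with r from 0.9991 to 0.9994. All 10 genes were lower in the Lv-Piezo1-labelled samples. Abcc9 itself was at position 138 in the list for Kcnj8, and Kcnj8 at position 127 in that for Abcc9, with r = 0.994. The points are 2 separate groups of 4 samples, so these values mainly reflect the gap between the groups and are given as a description.

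The closest genes also differed from Kcnj8 in size of change. The actin-severing protein Scin had 50.3 ± 2.79 and 5.22 ± 0.451 TPM (SD, n = 4 each) and a log2 fold change of -3.05, close to that of Kcnj8. B2m, the light chain of class I histocompatibility molecules, had 817.9 ± 7.71 and 541.6 ± 6.17 TPM (SD, n = 4 each) and a smaller log2 fold change of -0.59. Il1rl1, the receptor for interleukin 33, had 444.0 ± 83.3 and 30.9 ± 3.34 TPM (SD, n = 4 each), and its log2 fold change of -3.79 was larger in size than that of Abcc9.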

How the data were processed

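RNA-seq of total RNA was analysed in 8 samples of stretched rat AFCs, 4 per label. The authors deposited 1 table of TPM, with 2 decimals, for 31699 rows, 30560 of them with a rat Ensembl gene identifier and 1139 assembled loci. Its group mean columns are the authors' means and were not used. The methods of the study describe FPKM and DESeq, and the submitters' processing notes name DESeq2 and mm10, a mouse build, so the aligner settings, build and annotation behind the TPM are not certain, and a count test could not be run on TPM. All 8 sample columns were mapped by label, and 0 columns were left over. The labels name no batch. The study counts the cells of an isolation as an independent repeat and the samples of each group as biological repeats. It describes at most 4 independent repeats of its cell experiments, so samples of both groups may come from the same isolation. Whether equal replicate numbers in both groups mark the same isolation is not stated in the sources used here. A fit with these numbers as a replicate block is given below.

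Values were transformed to log2(TPM + 1), and genes averaging 1 TPM or more were tested with limma 3.58.1 in R 4.3.3 (empirical Bayes with a mean trend, 2 groups), with Benjamini-Hochberg adjustment over all 13103 genes. Calls required an adjusted p below 0.05 and a log2 fold change of at least 1 in size. The procedure was tested on simulated data. Tables and figures used Python 3.11.15, pandas 2.3.3 and matplotlib 3.10.9. Alternatives were a pseudocount of 0.1, no filter or a mean of at least 5 TPM, median-ratio scaling, quantile normalization, no mitochondrial genes, no trend, no fold change threshold, a replicate block and each sample left out.

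The 8 genes and all gene lists were chosen with earlier results of these data known. Named genes were the 8 genes, Piezo1, every called gene of the channel and uptake lists, the most abundant gene of each channel family, the 3 most abundant uptake genes (of which 1 is not reported here), 3 neighbours on each side of a gene pair and the 5 genes most correlated with Kcnj8 and with Abcc9. Gene order and promoters came from RefSeq on GRCr8. The MEF2 motif and the window of 5 neighbours were added after the data had been seen.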

Additional observations from a re-analysis of the deposited data

Results flagged for a closer look

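Of 62 sets of 4 values examined, 3 held a sample far from the others, where chance flags about 5% of such sets. Kcnmb1 was at 0.15 TPM in Lv-Piezo1 replicate 3 and at 0 in the other samples of that group. The summed TPM of the mural cell markers was 2202.0 in Lv-Piezo1 replicate 4 and 2290.9 to 2301.5 in the others. The summed TPM of the skeletal muscle markers was 49.6 in Lv-Ctrl replicate 2 and 9.86 to 12.2 in the others. Without Lv-Ctrl replicate 2, a fit looked at after this value was seen, Kcnj8, Abcc9 and Kcnj2 still passed the threshold. This is a description, since these genes were chosen with the comparison known.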

How the results depend on the processing

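The number of the 8 genes past the threshold was 4 with a pseudocount of 0.1, where Kcnma1 was added. It was also 4 with no fold change threshold, an alternative added after seeing the data, again with Kcnma1. In every other alternative it stayed at 3. Kcnma1 reached the filter only through the Lv-Ctrl samples and so had to differ. These counts are a description, since the 8 genes were chosen with this comparison known. Over all tested genes, 628 were called with a mean of at least 5 TPM and 7626 without the fold change threshold, against 1005. Without that threshold 11 other potassium channel genes and 11 uptake genes were called, and 1 uptake gene was called with a mean of at least 5 TPM, where fewer genes were tested. Leaving out each sample in turn gave 996 to 1038 calls over all genes, 3 to 4 other potassium channel genes, 4 uptake genes and a Piezo1 log2 fold change of 0.33 to 0.43. Higher calls were 64.1% of all calls, 52.1% with median-ratio scaling and 48.8% with quantile normalization. Kcnj12 passed the filter and the threshold without Lv-Piezo1 replicate 1, 2 or 3 and with mitochondrial genes left out, and the threshold with no filter, which gave 4 calls in the list. Where Kcnj12 passed the filter, it did so only through the Lv-Ctrl samples and so had to differ. Its mean over all samples of a group was 1.62 TPM in Lv-Ctrl and 0.288 TPM in Lv-Piezo1. The deviations showed no pairing by replicate number: same-numbered samples had correlations of -0.06 to -0.01 between their deviations (4 pairs), beside -0.09 to 0.11 for the other 12 pairs. With the numbers as a replicate block, 1004 genes were called in all, 3 other potassium channel genes, 4 uptake genes and 3 of the 8 genes, and Piezo1 had a log2 fold change of 0.38 (adjusted p = 0.0068 from limma). Log2 fold changes were compared across the alternatives for Piezo1, the tested genes among the 8, the called channel and uptake genes, Atp1b3 and Slc12a2. None of these changed sign. Those of other named genes, such as Sox9, Cmas and Golt1b, were not compared. Quantile normalization turned the balance of all calls to 463 higher and 485 lower. Depth is unknown, so a gene listed at 0 cannot be told from one below detection.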
